A study of Mus musculus with 12 samples.

Results

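Neurexins, neuroligins and the scaffolds behind them join the sending and the receiving side of a synapse. The 9 genes described here are Nrxn2 and Nrxn3, Nlgn1, Nlgn2 and Nlgn3, and the scaffold genes Dlg4, Shank1, Shank2 and Shank3. Each was taken from the deposited table of 35556 rows as the row whose platform annotation names that gene alone, and the row with the highest mean was used where a gene had several. All 9 genes had such a row, out of 11 rows that name them. RNA came from the nucleus accumbens, core and shell together, a ventral part of the striatum that receives dopamine input, and was read on Affymetrix Mouse Gene 1.1 ST arrays, 1 mouse per array. Poly(I:C) is a mimic of viral RNA that sets off an immune response. The poly(I:C) group was 6 adult offspring of C57BL/6N mothers given 5 mg/kg of poly(I:C) into a vein on gestation day 17. The control group was 6 adult offspring of mothers given saline by the same route on that day. All 12 mice were 12 weeks old and had been through behavioural and cognitive tests before dissection, and the comparison asks whether prenatal exposure leaves a mark on accumbens RNA in adulthood.

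Neurexins sit in the membrane of the presynaptic terminal and bind neuroligins across the cleft, and each neurexin gene can be read from separate promoters into long and short forms with many splice variants. Neuroligin 1 is found mostly at excitatory synapses, neuroligin 2 at inhibitory synapses, and neuroligin 3 at both. Inside the excitatory postsynaptic density PSD-95, the product of Dlg4, binds neuroligins and NMDA receptors, and Shank proteins form the layer beneath it that reaches Homer and the actin skeleton. The accumbens is built mainly of GABAergic medium spiny neurons, whose spines carry the excitatory synapses made by cortical, hippocampal, thalamic and amygdalar axons. An array signal cannot tell a fall in RNA per cell from a fall in the number of cells that make it, and a single row per gene does not separate splice forms.

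Array values are log2 values of the authors' RMA table, so a difference of 1 is a doubling, and each row has its own scale, so that levels are compared between arrays for the same gene only. The table gives no detection call, and all 9 genes lay above 5.47, the median level of the 21218 tested rows. Array medians ran from 4.78 to 4.85, and pairwise correlations between arrays from 0.991 to 0.997. Medium spiny neuron markers were high, with Drd1 at 8.62 ± 0.21 in poly(I:C) offspring and 8.45 ± 0.26 in controls, and Drd2 at 8.69 ± 0.19 and 8.73 ± 0.23 in the same order of groups (SD, n = 6 arrays each). Xist, the transcript of the inactive X chromosome, lay between 2.85 and 3.05 on all 12 arrays, and the Y-linked gene Kdm5d between 6.31 and 6.68. Marker levels of other cell types varied between arrays and are given below, and the source of that RNA was not tested. The labels name neither sex nor litter nor hybridisation batch, so the p-values treat the 12 mice as independent.

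Nrxn2, a presynaptic receptor for neuroligins, gave nearly the same values in both groups. Its lowest, median and highest values were 8.73, 8.96 and 8.98 in poly(I:C) offspring, against 8.89, 8.93 and 9.05 in controls. The low poly(I:C) value came from a single array, poly(I:C) 6, and the remaining poly(I:C) values lay between 8.89 and 8.98, near or within the control range. The log2 difference was -0.03 (95% interval -0.13 to 0.07, limma adjusted p = 0.794). A further row of the gene stood at 6.00 ± 0.08 in poly(I:C) offspring and 6.07 ± 0.25 in controls, a difference of -0.07 (limma adjusted p = 0.768).

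Nrxn3, the other neurexin measured here, was slightly higher in value. The poly(I:C) arrays had 9.65, 9.69 and 9.75 as their lowest, median and highest values, against 9.55, 9.63 and 9.75 in controls. All 6 poly(I:C) values were above the control mean, and 4 of 6 controls lay below the lowest poly(I:C) array, but control 3 reached the top of the range. The difference was 0.06 (95% interval -0.02 to 0.14, limma adjusted p = 0.486), which did not pass the test. As a percent change the interval ran from -1.37% to 10.1%.

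Nlgn3 showed the smallest unadjusted p of the 9 genes. This neuroligin acts at excitatory and inhibitory synapses and lies on the X chromosome. The poly(I:C) arrays held a narrow band, with 9.22, 9.26 and 9.34 as lowest, median and highest value, whereas the controls spread over 8.87, 9.11 and 9.30. Controls 1, 2, 4 and 6 lay below every poly(I:C) array, and controls 3 and 5 lay within the poly(I:C) range. The means were 9.27 ± 0.04 in poly(I:C) offspring and 9.11 ± 0.16 in controls (SD, n = 6 each), a log2 difference of 0.16 (95% interval 0.03 to 0.29). That is 11.7% more signal, with an interval from 1.89% to 22.5%. The unadjusted p was 0.0218 and the limma adjusted p over all rows was 0.268, so the call was not made. The exact permutation test of the same values over all assignments of the arrays to groups gave an unadjusted two-sided p of 0.0390.

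Nlgn1 and Nlgn2 were lower in value, and neither difference exceeded the spread between arrays. Nlgn1, the neuroligin of excitatory synapses, had 7.86, 8.02 and 8.33 as lowest, median and highest value in poly(I:C) offspring and 7.97, 8.06 and 8.30 in controls. Poly(I:C) 6 gave the highest value of all arrays, and the rest of its group lay between 7.86 and 8.09. The difference was -0.07 (95% interval -0.24 to 0.10, limma adjusted p = 0.743), and a further, dimmer row of Nlgn1 gave -0.06. Nlgn2, the neuroligin of inhibitory synapses, had 8.37, 8.42 and 8.50 in poly(I:C) offspring and 8.34, 8.47 and 8.67 in controls. Controls 1 and 4 had the highest Nlgn2 values, and the other controls lay between 8.34 and 8.50. Its difference was -0.07 (95% interval -0.19 to 0.05, limma adjusted p = 0.584).

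Dlg4, which encodes the scaffold PSD-95, differed little. The poly(I:C) arrays had 10.19, 10.24 and 10.33 as lowest, median and highest value, and the controls 10.11, 10.20 and 10.37. The groups overlapped over most of their range. The difference was 0.03, and its 95% interval, -0.07 to 0.12, equals a change between -4.62% and 8.80% (limma adjusted p = 0.832).

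Shank1 and Shank2, which encode scaffolds deep in the postsynaptic density, were higher in value in poly(I:C) offspring, whereas Shank3, the third gene of the family and the one most tied to striatal synapses in mouse mutants, was level. Shank1 had 8.07, 8.30 and 8.54 as lowest, median and highest value in poly(I:C) offspring and 7.82, 8.06 and 8.35 in controls. Its means were 8.30 ± 0.16 in poly(I:C) offspring and 8.08 ± 0.19 in controls (SD, n = 6 each), a log2 difference of 0.21 (95% interval 0.02 to 0.41, unadjusted p = 0.0336, limma adjusted p = 0.307). Only poly(I:C) 2 and 4 exceeded the highest control, which was control 1. Shank2 had 6.97, 7.25 and 7.35 in poly(I:C) offspring and 6.89, 7.02 and 7.25 in controls. Poly(I:C) 1, 2 and 4 exceeded every control, and controls 2, 5 and 6 lay below every poly(I:C) array. The Shank2 difference was 0.17 (95% interval 0.01 to 0.33, unadjusted p = 0.0437, limma adjusted p = 0.333). The exact permutation test gave unadjusted two-sided p-values of 0.0693 for Shank1 and 0.0714 for Shank2. Shank3 had 7.44, 7.52 and 7.92 in poly(I:C) offspring and 7.44, 7.57 and 7.78 in controls, a difference of -0.01 (95% interval -0.19 to 0.17, limma adjusted p = 0.965). Its highest value was again poly(I:C) 6, and the other poly(I:C) arrays lay between 7.44 and 7.62.

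**Figure D1:**
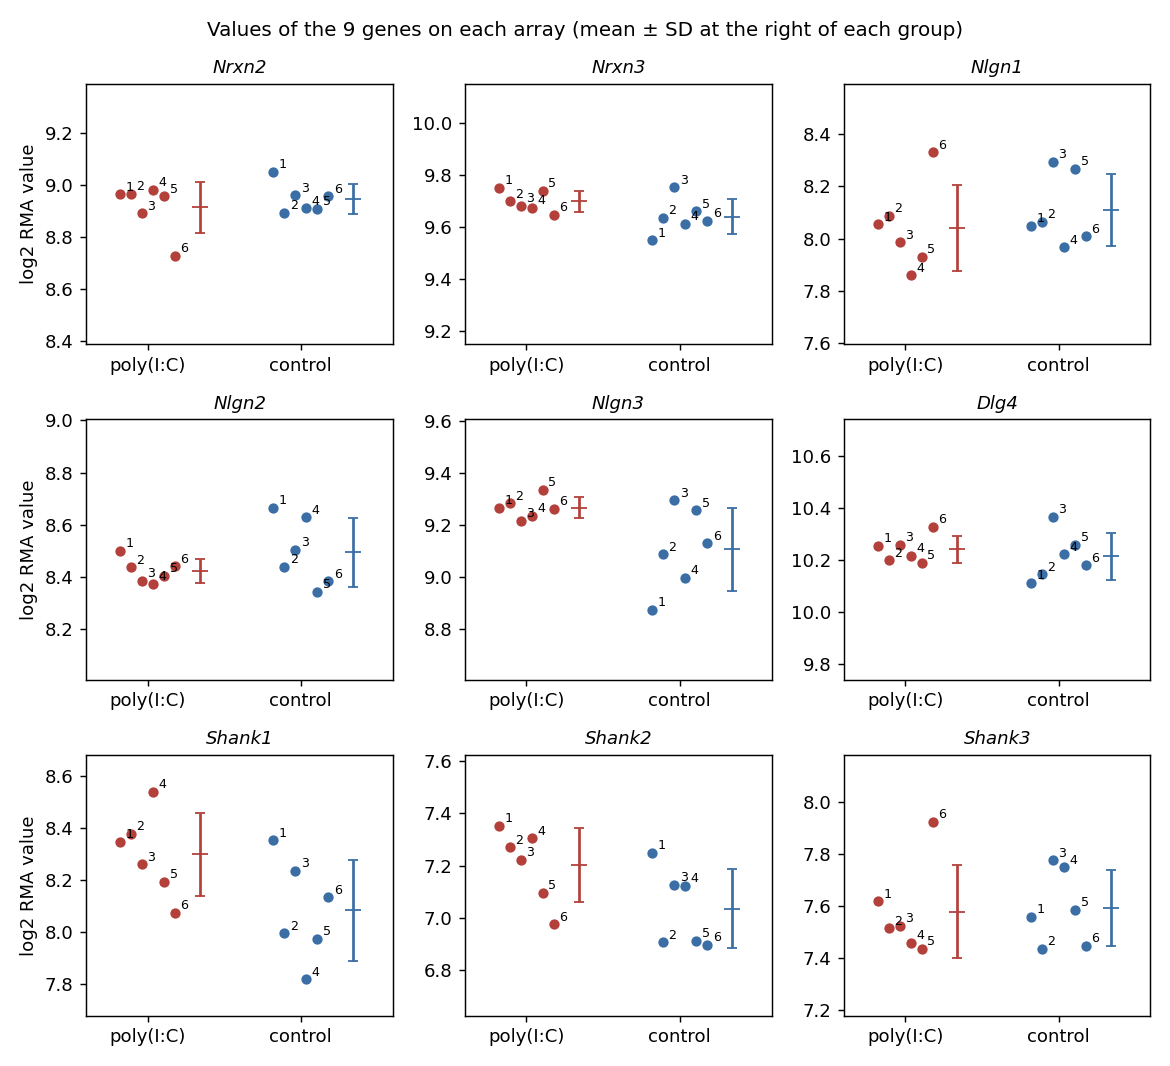
Log2 RMA values of the 9 genes, 1 point per array labelled with its replicate number, poly(I:C) offspring in red and controls in blue, with the mean and SD (n = 6) at the right of each group; every panel spans 1 log2 unit. The Nlgn3 points of the poly(I:C) group lie between 9.22 and 9.34 and the controls between 8.87 and 9.30, and poly(I:C) 6 is the lowest array of its group for Nrxn2, Nrxn3, Shank1 and Shank2 and the highest for Nlgn1, Dlg4 and Shank3.

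Across the 9 genes, 0 passed the adjusted threshold of 0.05 by limma, where 0.0613% of the 21218 tested rows did. At an unadjusted p under 0.05 there were 3 members, Nlgn3, Shank1 and Shank2, all higher in poly(I:C) offspring; among all rows 14.4% reached that level, 7.83% as higher. Among rows above the median level, where the 9 genes lie, the shares were 19.8% and 12.4%. The arrays of the groups overlapped for all 9 genes, whereas 1.13% of all rows did not overlap and 0.603% had every poly(I:C) array above every control. In value 5 members were higher and 4 lower, where 50.9% of all rows were higher. The median difference was 0.03, beside 0.002 over all rows and 0.02 over rows above the median level. The count of 3 was 1 without any one of poly(I:C) 1, 2 or 4 or control 2, 4 or 5, it was 4 without control 3, and it was 0 without controls 4 and 6 together. The 3 neuroligin genes had a median difference of -0.07 (range -0.07 to 0.16) and the 4 scaffold genes of 0.10 (range -0.01 to 0.21), so each group held both signs.

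Markers of cortical neurons moved with Shank1 and Shank2, and not detectably with Shank3 (r = -0.10 over 12 arrays with group means removed, permutation adjusted p = 0.789). Of 9 measured genes of cortical glutamatergic neurons, cells that lie outside the accumbens, 8 were higher in value in poly(I:C) offspring. The mean of the list ran from 5.94 to 6.80 in poly(I:C) offspring and from 5.54 to 6.69 in controls, and the 9 log2 values summed to between 53.4 and 61.2 in poly(I:C) offspring and between 49.8 and 60.2 in controls. Slc17a7, which loads glutamate into vesicles of cortical cells, had 8.82 ± 0.70 in poly(I:C) offspring and 7.32 ± 1.49 in controls. On a log2 array scale no marker is listed at 0, and 3 of the 9 lay below the median level of all rows. Control 1 had the highest list mean of its group, and it also had the highest Shank1 and Shank2 of the controls.

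The cortical mean was then entered in the fit as a covariate. With it, the Shank1 difference was 0.04 (95% interval -0.11 to 0.18) instead of 0.21, and the Shank2 difference was 0.03 (95% interval -0.10 to 0.16) instead of 0.17. The mean of 7 pan-neuronal genes, 9.71 ± 0.10 in poly(I:C) offspring and 9.62 ± 0.11 in controls, gave 0.07 for both genes when entered in the same way. For Nlgn3 the difference was 0.21 (95% interval 0.06 to 0.37, unadjusted p = 0.00994, limma adjusted p = 0.353) with the cortical mean, 0.18 with the pan-neuronal mean, and 0.16 (unadjusted p = 0.0494, limma adjusted p = 0.593) with 3 means together (cortical, septal, choroid plexus). Nrxn2 stood at -0.09 with the pan-neuronal mean (95% interval -0.18 to -0.01, unadjusted p = 0.0261, limma adjusted p = 0.390). No member passed the adjusted threshold in any of these fits.

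Markers of ventricular lining and of oligodendrocytes were lower in value, whereas those of other glia were close between groups. None of the 10 measured choroid plexus and ependymal genes was higher in value, with list means from 4.66 to 4.91 in poly(I:C) offspring and from 4.77 to 6.41 in controls. Controls 4 and 6, the arrays left out together above, had the highest list means, 5.92 and 6.41. They also had the highest values of Ttr, a choroid plexus gene, at 10.5 and 10.9. The septal, pallidal and diencephalic list ran from 5.52 to 6.31 in poly(I:C) offspring and from 5.64 to 6.56 in controls. None of the 11 measured oligodendrocyte genes was higher in value either, with list means from 7.56 to 7.72 in poly(I:C) offspring and from 7.70 to 8.24 in controls. Astrocyte list means averaged 8.59 in poly(I:C) offspring and 8.58 in controls, and microglia list means 6.39 in poly(I:C) offspring and 6.44 in controls. Within groups the oligodendrocyte mean had r = -0.71 with Shank2 over 12 arrays, and its part in the results was not tested.

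**Figure D2:**
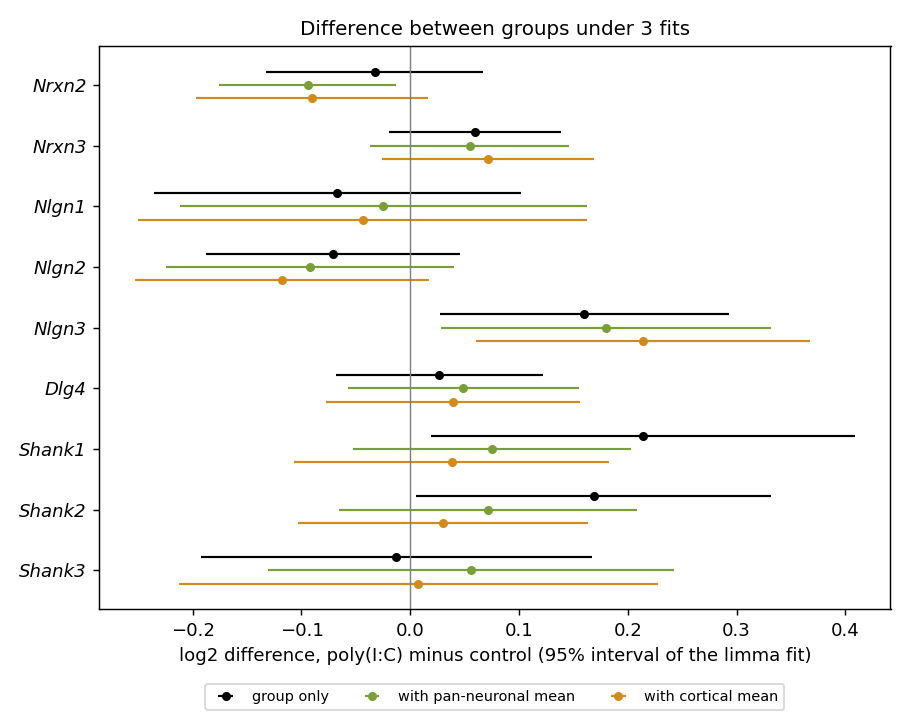
Log2 difference, poly(I:C) minus control, of each of the 9 genes with its 95% interval, from the fit with group alone (black), with the mean of pan-neuronal markers (green) and with the mean of cortical neuron markers (orange) as a covariate. The Shank1 and Shank2 points move from 0.21 and 0.17 to 0.04 and 0.03 with the cortical mean, and the Nlgn3 point stays to the right of 0 in all 3 fits.

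Within the groups the 9 genes did not vary as a block. Group means were removed before correlating, and p-values come from 100000 permutations of arrays within groups, adjusted by Benjamini-Hochberg over 36 gene pairs. Pearson's r ran from -0.66 to 0.83, with 20 positive and 16 negative values, and 3 pairs passed by Pearson's r. Nrxn3 and Nlgn3, a neurexin and a neuroligin, had r = 0.83 (permutation adjusted p = 0.0371) and Spearman's rho = 0.81 (permutation adjusted p = 0.0414). That r was 0.54 without controls 1 and 3, the arrays farthest from the median of Nrxn3, so the relation rests in part on those arrays. Nrxn2 and Shank1 had r = 0.77 (permutation adjusted p = 0.0371) and rho = 0.83 (permutation adjusted p = 0.0270), and r was 0.68 without control 1 and poly(I:C) 6. Nrxn2 and Shank2 passed by rank alone, with r = 0.74 (permutation adjusted p = 0.0616) and rho = 0.78 (permutation adjusted p = 0.0414), and r was 0.28 without the same arrays. Dlg4 and Shank3 had r = 0.75 (permutation adjusted p = 0.0448) and rho = 0.73 (permutation adjusted p = 0.140), and r was 0.55 without control 3 and poly(I:C) 6. The r of Nlgn1 with Dlg4, 0.71, was 0.39 without control 3 and poly(I:C) 6, and that of Nlgn1 with Shank3, 0.70, was 0.14. Shank1 and Shank3, members of the same family, had r = -0.37.

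**Figure D3:**
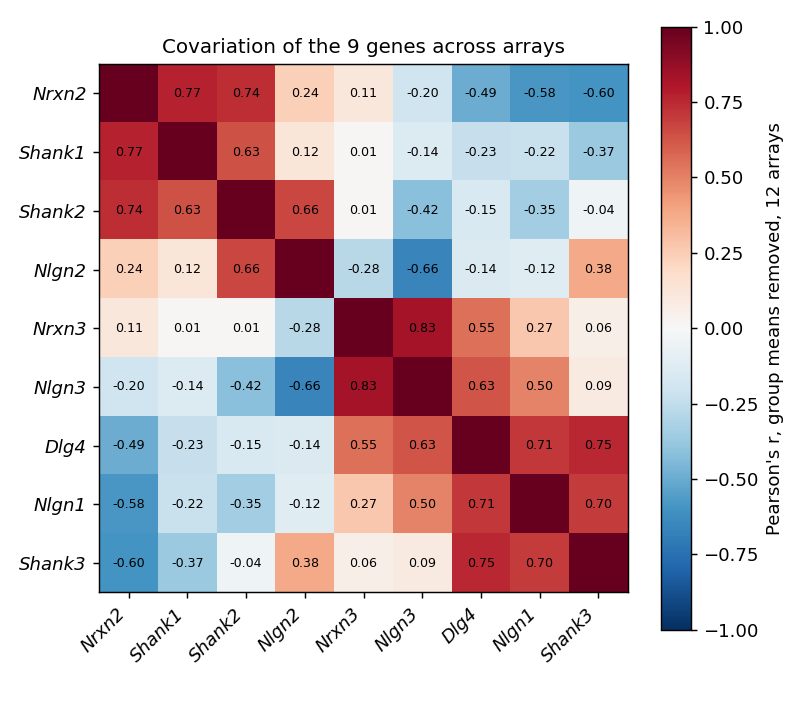
Pearson's r between each pair of the 9 genes over 12 arrays after removal of the group means, on a scale from -1 (blue) to 1 (red). Nrxn2, Shank1 and Shank2 have r between 0.63 and 0.77 with each other, Dlg4, Nlgn1 and Shank3 have r between 0.70 and 0.75, and Nrxn2 has negative values with all of the second trio.

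The 9 genes were also set against the mean levels of 3 neuronal marker lists, 27 relations in all, with p-values adjusted over the 27. Shank1 followed the cortical list with r = 0.83 (permutation adjusted p = 0.0152) and rho = 0.83 (permutation adjusted p = 0.0333), and Shank2 with r = 0.80 (permutation adjusted p = 0.0234) and rho = 0.75 (permutation adjusted p = 0.0475). Without control 1 and poly(I:C) 4 these were r = 0.68 and r = 0.69. Within groups, the Shank1 value was 0.85 in poly(I:C) offspring and 0.82 in controls. Shank1 had its highest value with the pan-neuronal list (r = 0.86, permutation adjusted p = 0.0130, rho = 0.87, permutation adjusted p = 0.0267), and r was 0.77 without control 4 and poly(I:C) 6. Shank2 passed with that list too (r = 0.73, permutation adjusted p = 0.0400, rho = 0.78, permutation adjusted p = 0.0475). Nrxn2 followed the pan-neuronal list (r = 0.85, permutation adjusted p = 0.0304, rho = 0.76, permutation adjusted p = 0.0475), and r was 0.72 without control 4 and poly(I:C) 6.

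Dlg4, Shank3 and Nlgn1 had high values on arrays with high medium spiny neuron markers. Over 10 such genes the list mean was 9.14 ± 0.14 in poly(I:C) offspring and 9.08 ± 0.20 in controls (SD, n = 6 each). For Shank3 r was 0.81 (permutation adjusted p = 0.0152) with rho = 0.76 (permutation adjusted p = 0.0475), for Dlg4 r was 0.77 (permutation adjusted p = 0.0344) with rho = 0.73 (permutation adjusted p = 0.0475), and for Nlgn1 r was 0.74 (permutation adjusted p = 0.0304) with rho = 0.71 (permutation adjusted p = 0.0545). Without control 6 and poly(I:C) 6 the values were r = 0.71, r = 0.92 and r = 0.64 in that gene order. The same genes also had positive values with the microglia list, r = 0.86 for Nlgn1, 0.67 for Dlg4 and 0.63 for Shank3 over 12 arrays, so the relation is not particular to medium spiny neuron markers. Nlgn3 did not pass with any of the 3 lists, and its r was -0.39 with the cortical list, -0.19 with the pan-neuronal list and 0.29 with the medium spiny neuron list. In all, 8 of 27 relations passed by Pearson's r and 7 by Spearman's rho.

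**Figure D4:**
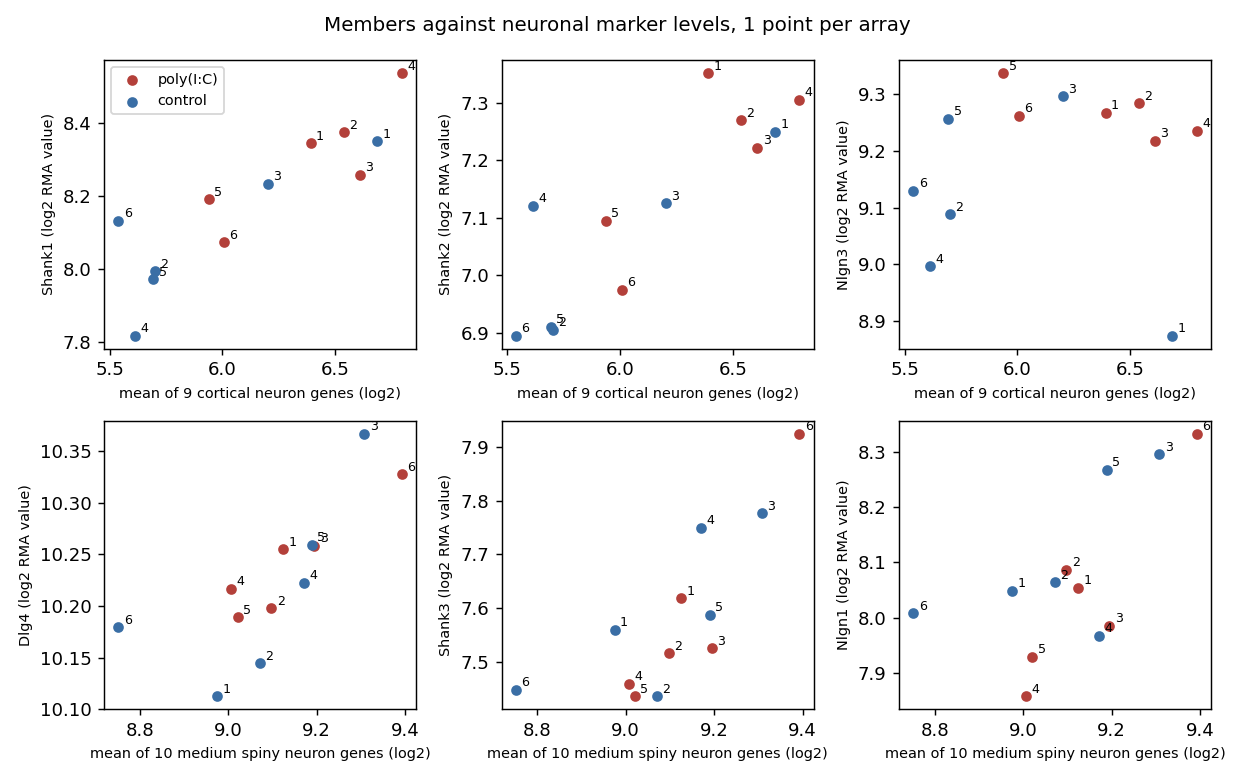
Log2 RMA values of 6 genes against the mean log2 level of 9 cortical neuron markers (upper row) or 10 medium spiny neuron markers (lower row), 1 point per array with its replicate number, poly(I:C) offspring in red and controls in blue. Shank1 and Shank2 rise with the cortical mean in both groups, Nlgn3 does not, and Dlg4, Shank3 and Nlgn1 are highest on control 3 and poly(I:C) 6, the arrays with the highest medium spiny neuron mean of their group.

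The promoters of Dlg4, Nlgn1 and Shank3 are shown because each of these genes passed by Pearson's r with the medium spiny neuron list, although of their pairs only Dlg4 with Shank3 passed. The windows run from 250 bases before to 50 bases after an annotated start in the RefSeq table of GRCm38.p6, on the strand of the gene, and 5 of the 9 genes have windows there (Dlg4, Nlgn1, Nlgn2, Nrxn3 and Shank3). Where a gene has several, the window with the most CpG dinucleotides is printed. Capitals mark the GC box GGGCGG on either strand, the sequence bound by Sp1-type factors; adjoining or overlapping boxes are capitalised as 1 run.
Dlg4, chr11:70023732-70024031, plus strand: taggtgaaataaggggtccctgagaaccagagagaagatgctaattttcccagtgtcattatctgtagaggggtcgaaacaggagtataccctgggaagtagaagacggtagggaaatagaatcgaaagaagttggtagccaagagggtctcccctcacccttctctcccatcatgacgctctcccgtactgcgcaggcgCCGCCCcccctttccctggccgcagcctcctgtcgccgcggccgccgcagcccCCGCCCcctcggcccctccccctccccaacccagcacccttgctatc
Nlgn1, chr3:26331860-26332159, minus strand: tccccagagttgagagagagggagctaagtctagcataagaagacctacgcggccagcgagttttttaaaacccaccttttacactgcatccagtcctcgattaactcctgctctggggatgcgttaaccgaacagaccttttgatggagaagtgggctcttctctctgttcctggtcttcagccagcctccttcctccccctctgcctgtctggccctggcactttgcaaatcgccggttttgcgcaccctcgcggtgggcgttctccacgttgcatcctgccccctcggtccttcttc
Shank3, chr15:89499358-89499657, plus strand: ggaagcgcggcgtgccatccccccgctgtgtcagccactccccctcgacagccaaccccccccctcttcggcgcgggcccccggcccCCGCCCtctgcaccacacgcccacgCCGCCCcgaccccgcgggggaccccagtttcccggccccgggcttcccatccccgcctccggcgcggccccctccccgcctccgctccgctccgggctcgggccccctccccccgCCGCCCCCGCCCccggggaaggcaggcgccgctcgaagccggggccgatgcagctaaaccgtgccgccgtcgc
The Shank3 window is the most GC-rich of the 3 at 81.0% and holds 4 GC boxes and 40 CpG dinucleotides. The Dlg4 window has 60.0% GC with 2 boxes and 16 CpG dinucleotides, and the Nlgn1 window 55.7% GC with 0 boxes and 14. The median over all 32851 promoter windows in the table is 52.7% GC with 7 CpG dinucleotides, and 35.7% of the windows hold the box on either strand. Those windows were not picked by CpG count, whereas the printed windows of Dlg4 and Nlgn1 were. The Dlg4 windows not printed have 46.3% GC with 5 CpG dinucleotides and 69.0% GC with 12, and each holds 0 boxes. The Nlgn1 window not printed has 44.7% GC with 6 CpG dinucleotides and 0 boxes.

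By the rule for naming genes of like pattern, the 3 genes with the highest r to each member were taken from 10272 rows above the median level, again with group means removed and over 12 arrays. These values are descriptions, since the highest of so many rows is high by selection. Nlgn3 was closest to Ankrd17 (r = 0.95), Lrrc41 (0.95) and Papolg (0.94). Nrxn3 was closest to Lrrc4b (0.92), which encodes the synaptic adhesion protein NGL-3, and then to Dcp1a (0.88) and Jag1 (0.86). Nrxn2 was closest to Atg7 (0.95), Slitrk1 (0.95), a synaptic adhesion gene, and Plcxd3 (0.93). Nlgn1 was closest to Synpr (0.97), the synaptic vesicle protein synaptoporin, Tmtc1 (0.96) and Alcam (0.95), and Nlgn2 to Nedd8, Uqcrq and Ube2r2 (0.93 each). Shank1 was closest to Rasal2 (0.96), Olfm1 (0.95) and the potassium channel gene Kcnj3 (0.95), and Shank2 to Psmd13 (0.93), Yipf1 (0.93) and the vesicle protein gene Syngr1 (0.93). Shank3 was closest to Med16 (0.98), Crtc1 (0.97), a coactivator of CREB, and Zswim6 (0.94), and Dlg4 to Adamts3 (0.93), Mrtfb (0.92) and Abcb9 (0.92).

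The spread between animals differed by gene. Nlgn3 had an SD of 0.04 in poly(I:C) offspring and 0.16 in controls, a ratio of 0.262 that 2.49% of all rows matched or undercut. Nlgn2 had 0.05 in poly(I:C) offspring and 0.13 in controls, a ratio of 0.356 matched or undercut by 6.59% of rows. Nrxn2 went the other way at 0.10 in poly(I:C) offspring and 0.06 in controls, which includes the single low value of poly(I:C) 6. Over all rows 59.5% had the smaller SD in poly(I:C) offspring, as did 6 of the 9 genes. No test of spread was made.

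Other genes of the synaptic adhesion and scaffold pathway were tested in the same fit. Of 94 listed genes 85 had a row, 68 of them were higher in value in poly(I:C) offspring, and 0 passed the adjusted threshold by limma. Most of these genes lie above the median level, where 59.5% of rows were higher in value. At an unadjusted p under 0.05 there were 20, 16 higher and 4 lower, against 7.83% and 6.57% of all rows in those directions and 12.4% and 7.37% of rows above the median level. The listed genes were thus higher in value more often than rows above the median level, a set not matched to them in level. The lists were chosen with earlier results of these data known and no set test was made, so nothing particular to them is read from the counts. The median difference of the 85 was 0.06, beside 0.02 over rows above the median level. With the cortical mean in the fit the count was 9, with 6 higher, and without any one of poly(I:C) 2, poly(I:C) 4, control 4 or control 6 it was 11, 10, 10 and 13.

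All 10 measured neurexin partners of the presynaptic terminal were higher in value, with a median of 0.09, and 4 had an unadjusted p under 0.05. Among rows above the median level, where all 10 lie, 59.5% were higher in value and 12.4% were higher at that p. Lin7a, which encodes an adaptor that joins CASK and Mint1 at neurexin tails, stood at 8.19 ± 0.10 in poly(I:C) offspring and 7.99 ± 0.14 in controls, a difference of 0.20 (95% interval 0.07 to 0.34, limma adjusted p = 0.186). It was 0.22 with the cortical mean in the fit. Ppfia2, a liprin of the active zone, was at 0.17 and Lin7c at 0.10. Among 15 other neurexin ligands, 13 were higher in value. Nxph3, a secreted ligand of alpha-neurexins, was at 0.38, Nxph4 at 0.18 and Clstn2 at 0.14, and both neurexophilin genes lay below the median level of all rows.

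Slitrk3 had the smallest p of the 85 genes. It encodes a postsynaptic protein that binds the receptor phosphatase PTPdelta at inhibitory synapses. The lowest, median and highest values were 8.24, 8.27 and 8.28 in poly(I:C) offspring, and the controls ranged from 7.84 to 8.21, so that the groups did not overlap. Slitrk3 was the only 1 of the 85 genes without overlap, where 1.13% of all rows did not overlap. The difference was 0.23 (95% interval 0.11 to 0.35, unadjusted p = 0.000910, limma adjusted p = 0.104). It was 0.19 with the cortical mean in the fit and passed the adjusted threshold without control 3 alone (0.26, limma adjusted p = 0.0456). Of the 24 adhesion genes 17 were higher in value, 3 of them and 3 lower ones at an unadjusted p under 0.05, with Flrt2 at 0.20 and Slitrk6 at -0.19. Among rows above the median level 59.5% were higher in value, and 12.4% were higher and 7.37% lower at that p.

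Postsynaptic partners gave small differences. Of 7 other membrane-associated guanylate kinases, Mpp3 was at 0.22 and Mpp2 at 0.12, and the PSD-95 relatives Dlg1 and Dlg2 were at 0.06 and 0.04. The 6 genes of the Dlgap and Homer scaffolds, which link PSD-95 to Shank and Shank to glutamate receptors, included Dlgap1 at 0.21, Dlgap4 at 0.09, Dlgap2 at 0.07 and Homer1 at -0.07, and 0 had an unadjusted p under 0.05. Of 18 further proteins of the excitatory density 15 were higher in value, beside 59.5% of rows above the median level. Cacng8, an auxiliary subunit of AMPA receptors, stood at 7.89 ± 0.10 in poly(I:C) offspring and 7.71 ± 0.07 in controls (difference 0.18, limma adjusted p = 0.153), and Begain, a partner of PSD-95, at 7.03 ± 0.18 in poly(I:C) offspring and 6.80 ± 0.12 in controls (0.23, limma adjusted p = 0.214). Cacng4, another AMPA receptor auxiliary subunit, lay the other way, with 8.32 ± 0.18 in poly(I:C) offspring and 8.61 ± 0.17 in controls (difference -0.29, limma adjusted p = 0.174). With the cortical mean in the fit Dlgap1 was at -0.0011, Mpp3 at 0.05, Nxph3 at 0.11, Ppfia2 at 0.07 and Cacng8 at 0.10, whereas Begain was at 0.27 and Cacng4 at -0.23. The 5 measured genes of the inhibitory postsynapse ranged from -0.02 to 0.03, with Gphn, the gephyrin scaffold that binds neuroligin 2, at 0.02 (95% interval -0.04 to 0.08), Lhfpl4 at -0.02 and Insyn2a at 0.03.

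**Figure D5:**
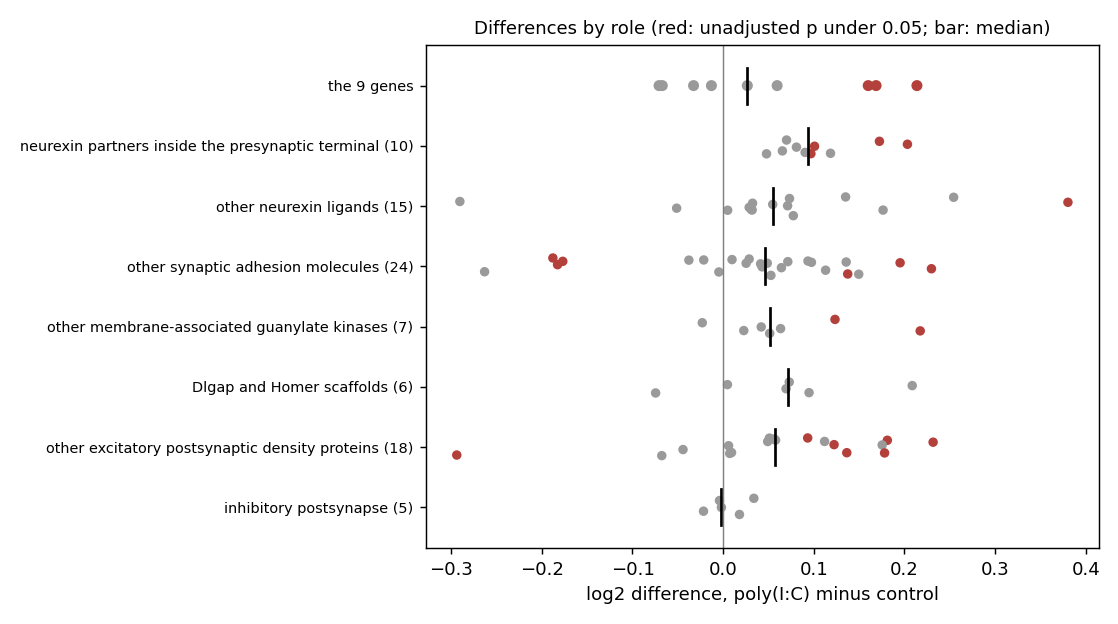
Log2 differences, poly(I:C) minus control, of the 9 genes and of 85 other synaptic genes by role, 1 point per gene, red where the unadjusted p was under 0.05, with the median of each row as a black bar and the number of genes in brackets. Medians lie between 0.05 and 0.09 for 6 of the 7 lists, and the 5 genes of the inhibitory postsynapse lie within 0.03 of 0.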

How the data were processed

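Values were used as deposited. Per the submitters' processing notes the authors made the log2 values with RMA and Partek 6.6; RMA by its standard definition corrects background, quantile-normalizes and summarises probe sets. No label states its settings or a genome build. Precision is limited by there being 12 arrays. Rows were named from the platform annotation: 21218 of 35556 had 1 gene symbol and were tested, 1881 had several and 12457 none, and 21185 matched the RefSeq gene table by gene ID, which changed 0 symbols. The test was limma 3.58.1 (lmFit and eBayes, defaults, group as the only term) in R 4.3.3, two-sided, with Benjamini-Hochberg adjustment over the 21218 rows at 0.05. The exact permutation test used all assignments of 6 and 6 arrays, with no adjustment, since the adjustment over the 9 genes written in the design was dropped. The fit was tested on simulated data with independent normal noise. Recovery past the adjusted threshold was required there only for differences far larger than those of the 9 genes. The 9 genes and all gene lists were chosen with earlier results of these data known. Named genes are the 9, up to 3 per list with the smallest unadjusted p plus Dlg2, Homer1 and Gphn, the 3 closest per member, and 6 markers. Marker and sex-linked checks describe the tissue; Xist and Kdm5d were chosen after their values were seen. Alternatives covered normalization, filters, array weights, the replicate block, tissue covariates and left-out arrays.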

Additional observations from a re-analysis of the deposited data

Results flagged for a closer look

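In groups of 6 arrays, a value was picked out where its gap to the nearest array took more than 0.625 of the group's range, a limit that chance passes in about 1 in 20 groups; 6 of 98 groups tested did so. Nrxn2 was 8.73 on poly(I:C) 6, with the next array of its group at 8.89. Shank3 was 7.92 on poly(I:C) 6, with the next at 7.62. The pan-neuronal marker mean was 9.52 on poly(I:C) 6, with the next at 9.72, and Ttr, a choroid plexus gene, was 6.80 on that array with the next at 5.51. Ppfia2 was 7.46 on control 4, below 7.70 on the next control. Insyn2a was 6.78 on control 5, above 6.50 on the next control.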

How the results depend on the processing

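No member passed the adjusted threshold in any of 24 alternative settings, and the adjusted p nearest the threshold was 0.104 (Shank2, array weights). The median difference of the 9 genes ran from 0.01 to 0.06 with 1 array left out (0.00638 to 0.0572). The number of members at an unadjusted limma p under 0.05, 3 as reported, was 1 with the cortical mean as covariate, 0 without controls 4 and 6 together, and 1 to 4 with 1 array left out. By limma Nlgn3 kept that level in 22 of 24 settings, Shank1 in 13 and Shank2 in 11. The exact permutation test counted 1 member, 0 without controls 4 and 6, and 0 to 2 with 1 array left out. The exact p of Nlgn3 was 0.0520 to 0.0736 without any one of poly(I:C) 1, 2, 5 or 6 or control 1, 2, 4 or 6. It was 0.00649 to 0.0476 without any one of poly(I:C) 3 or 4 or control 3 or 5. The context count of 20 was 7 with 3 tissue means (cortical, septal, choroid plexus), 9 with the cortical mean, 11 with the pan-neuronal mean, 10 without controls 4 and 6, and 10 to 27 with 1 array left out.

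Over all rows limma called 13. It called 38 after repeated quantile normalization, 20 among rows above the median level, 1 with trend and robust settings and 140 with array weights. It called 0 over all rows of the table, with the replicate block, with the 3 tissue means, with the cortical mean, with the pan-neuronal mean and without controls 4 and 6, where 4658, 2801, 1784, 2294, 2357 and 1768 rows had an unadjusted p under 0.05. With 1 array left out it called 0 to 84. With the replicate block 2 members had an unadjusted p under 0.05 and 15 context genes did; no member passed the adjusted threshold with it. Same-numbered arrays had correlated deviations of -0.20 to 0.27, and 1 of 6 correlated best with its own number, so the numbers show no pairing.

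Signs turned for the genes below, among them Dlgap1, Nxph4 and Clstn2, reported at 0.21, 0.18 and 0.14, and the cause was not tested. Shank3 was 0.00016 with arrays centred on their medians, 0.0685 with the 3 tissue means, 0.0073 with the cortical mean, 0.0561 with the pan-neuronal mean, and -0.082 to 0.024 with 1 array left out. Nrxn2 was 0.0024 with array weights and -0.046 to 0.0048 with 1 array left out. Gphn was -0.0017 after quantile normalization and Dlg2 -0.0038 with array weights. With the 3 tissue means Nxph4 was -0.0040, Clstn2 -0.0246, Dlgap2 -0.0072, Drd2 0.00039 and Snap25 -0.0219. With the cortical mean Nxph4 was -0.0167, Dlgap1 -0.0011, Dlgap2 -0.0044 and Drd2 0.0179, and with the pan-neuronal mean Drd2 was 0.0515. With 1 array left out Insyn2a ran from -0.018 to 0.088, Drd2 from -0.11 to 0.0046 and Lhfpl4 from -0.048 to 0.0035.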
